A study of Mus musculus with 7 samples.

Results

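AMPA and kainate receptors are the ion channels that carry most fast glutamate signalling in the cortex, and their subunits are encoded by 9 genes on the mouse array, *Gria1* to *Gria4* for the AMPA receptors and *Grik1* to *Grik5* for the kainate receptors. The members were every probe set annotated to a single one of these genes. The 9 genes stand among 12315 that tested probe sets name. They had 18 such probe sets among 45101 on the array, none of them with _x in its name, and 17, from all 9 genes, reached a normalized intensity of 50 on at least 1 array and were tested among 22748 probe sets. The probe set that did not, *Grik1* 1439987_at, lay between 12.3 and 17.9 on the 7 arrays.

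The samples were primary neurons of C57/Bl6J mice, prepared from E16 embryonic cortex and harvested after 16 days in vitro, with total RNA of each sample hybridised to its own Affymetrix Mouse 430_2 array. In 4 samples, numbered 1 to 4 and called luciferase, the cultures had carried for 2 weeks a short hairpin (sh)RNA against luciferase, a gene that mice lack, expressed from the H1 promoter of the lentiviral vector pLL3.7_H1. In 3 samples, numbered 5 to 7 and called blank, the cultures were untransduced, and the authors had dropped a further untransduced sample after quality control of its RNA. The comparison therefore asks how the subunit messages differ between cultures with and without virus and control hairpin, and virus and hairpin cannot be told apart in it.

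AMPA receptors are tetramers of the subunits GluA1 to GluA4, which *Gria1* to *Gria4* encode, and they open quickly to carry sodium into the postsynaptic cell. GluA2, once its message has been edited by adenosine deamination, makes the channel nearly impermeable to calcium, so the mixture of subunits sets what an AMPA receptor conducts. Kainate receptors are tetramers too: GluK1 to GluK3, encoded by *Grik1* to *Grik3*, form channels of their own, whereas GluK4 and GluK5, encoded by *Grik4* and *Grik5*, bind the agonist kainate with high affinity and need a partner among the first group. They act on both sides of the synapse, where they tune transmitter release and slow postsynaptic currents.

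The promoters of *Gria2*, whose brightest probe set was higher in the luciferase samples, and of *Grik2*, the only member gene with lower probe sets, are shown because these genes moved in opposite directions. Both windows run from 250 bases before to 50 bases after the annotated start, from RefSeq on build GRCm38.p6, at chr3:80802786-80803085 on the minus strand for *Gria2* and at chr10:49788705-49789004 on the minus strand for *Grik2*. Of the 9 members, *Gria2*, *Gria4*, *Grik2*, *Grik3*, *Grik4* and *Grik5* matched an entry, 6 in all. Capitals mark, in *Gria2*, both arms of the RE1 element, read on the other strand, and, in *Grik2*, ETS cores.
Gria2: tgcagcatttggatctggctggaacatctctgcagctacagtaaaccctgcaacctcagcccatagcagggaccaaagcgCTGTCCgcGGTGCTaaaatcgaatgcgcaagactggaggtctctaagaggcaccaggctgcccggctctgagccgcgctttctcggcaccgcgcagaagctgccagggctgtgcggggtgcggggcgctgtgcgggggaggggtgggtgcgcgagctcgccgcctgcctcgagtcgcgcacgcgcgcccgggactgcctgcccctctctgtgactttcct
Grik2: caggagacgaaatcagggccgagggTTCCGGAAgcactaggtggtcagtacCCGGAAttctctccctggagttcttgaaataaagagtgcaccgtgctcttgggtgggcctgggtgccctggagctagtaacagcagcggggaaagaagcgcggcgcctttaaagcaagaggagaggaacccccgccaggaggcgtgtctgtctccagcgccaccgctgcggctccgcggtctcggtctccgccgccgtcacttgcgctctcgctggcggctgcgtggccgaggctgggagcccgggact
The letters were searched on both strands of all 32851 windows of this length. The RE1 element is bound by REST, a repressor of neuronal genes. Its arms were chosen for the search after its match in *Gria2* was known, so that match is not independent of the choice. Its left arm, searched as AGCACC, lay in 16.2% of the windows and its right arm, searched as GGACAG, in 22.2%, and of the 6 members *Gria2* alone held either, from positions -162 and -170. The ETS core CCGGAA lay in 14.9% of all windows and 3 times in *Grik2*, from positions -225, -223 and -199, and the matches at -225 and -223 overlap on opposite strands. The GC box GGGCGG, read by SP1, lay in 35.7% of windows and in 3 of the 6 members, 7 times in *Grik3* and 2 times each in *Grik4* and *Grik5*, and the cyclic AMP response element TGACGTCA lay in 1.79% of windows and in 0 of the 6. Matches of different motifs did not overlap in these 6 windows. The *Gria2* and *Grik2* windows held 65.7% and 64.7% G and C, against a median of 52.7% over all windows. Such a match describes the letters and not a bound site.

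Of the 17 tested probe sets, 7 rose and 2 fell in luciferase against blank samples at an adjusted p of at most 0.05 (limma, Benjamini-Hochberg over all 22748 probe sets), and 8 did not pass. Either way, 9 of 17 passed where 24.5% of all tested probe sets did. The members higher were 41.2% of 17 against 16.2% of all tested probe sets, and the members lower were 11.8% against 8.26%. In 7 probe sets every luciferase sample lay above every blank sample, and in 2 every one lay below, where 22.5% and 12.3% of all tested probe sets did so. The median log2 change of the members was 0.28 and that of all tested probe sets 0.06. None of the 17 reached the 1.5-fold change that, with the adjusted p, made a call in the methods (0 against 4.19% of all tested probe sets, 2.9% higher and 1.29% lower). At an unadjusted p of at most 0.05 in the limma fit, 12 passed, 8 of AMPA and 4 of kainate genes. The share of all tested probe sets at that p was not counted. It cannot be below the 24.5% past the adjusted p, so the 12 cannot be set against it. Still 0 of 17 was 1.5-fold. Without luciferase sample 2 (*Gria3*), luciferase sample 4 or blank sample 5 (both *Grik1*), 1 member was. In bulk RNA of a mixed culture, fewer cells of a type and less RNA per cell cannot be told apart. The labels name neither litters nor culture days, so p-values reflect only the variation among these samples, and that may be technical.

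**Figure D1:**
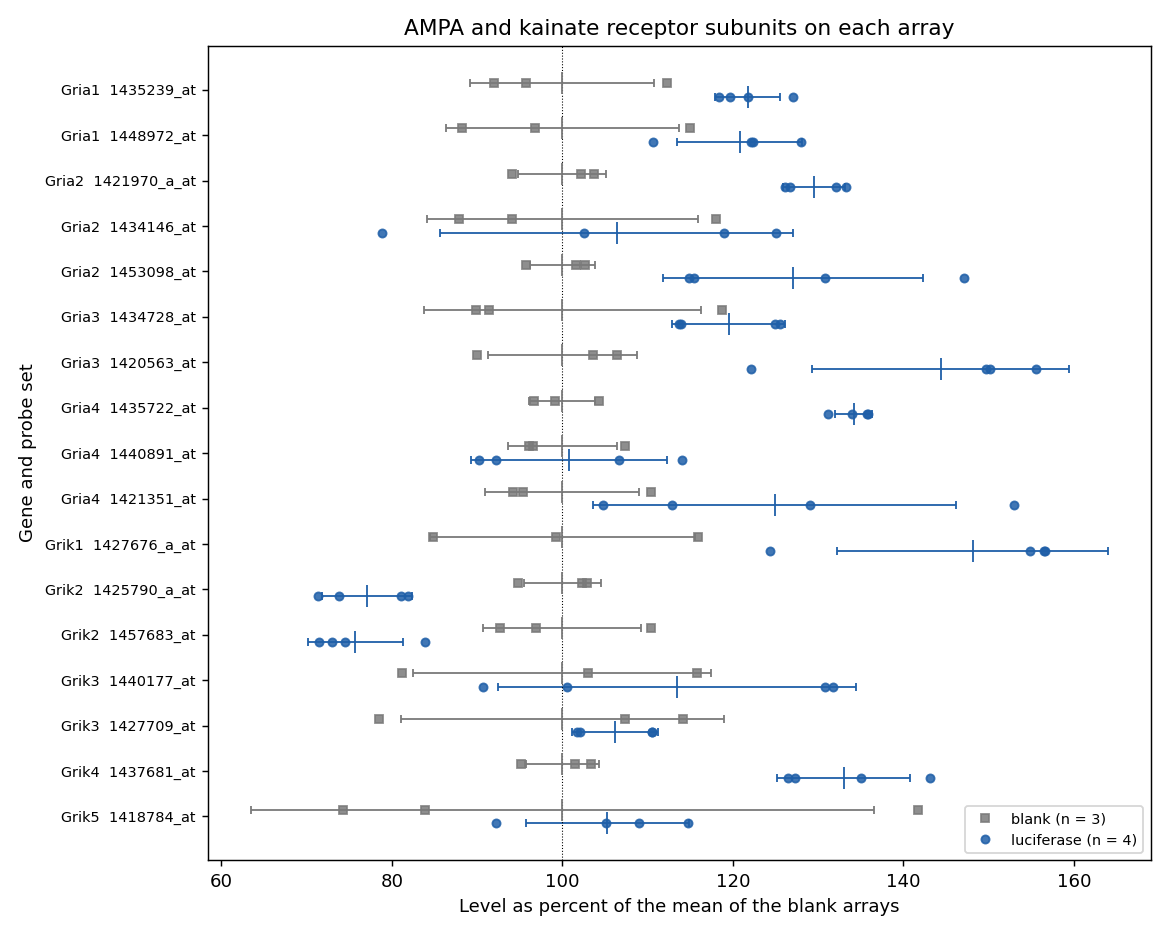
Normalized intensity of the 17 tested probe sets in each sample as a percent of the mean of the blank samples (x axis), with grey squares for the 3 blank samples, blue circles for the 4 luciferase samples, ticks for the means and bars for the SD. The groups stand apart in 9 probe sets, to the right of the blank samples in 7 and to the left in the 2 of *Grik2*.

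Across the AMPA subunits, all 10 probe sets, from 4 genes, had a positive log2 change on the deposited scale. Of all 22748 tested probe sets, 13421 did so. The changes of the 10 ran from 0.01 to 0.53 with a median of 0.30. Among them *Gria4* 1440891_at turned to -0.09 under quantile normalization and to -0.09 after median centring of each array, and *Gria2* 1434146_at to -0.02 after centring. Of the 10, 5 were higher past the adjusted p and 0 lower, beside 16.2% and 8.26% of all tested probe sets. The 5 lay in all 4 genes, at least 1 in each. The number that passed was 3 without luciferase sample 2 or 3 or blank sample 5 or 6, and 7 without blank sample 7. The share of all tested probe sets that was higher moved the same way. It was 11.5%, 11.5%, 9.74% and 8.97% without luciferase samples 2 and 3 and blank samples 5 and 6. Without blank sample 7 it was 21.6%. The scaling also moved the background, since 66.2% of all probe sets past the adjusted p were higher as deposited, 49.5% after quantile normalization and 37.3% after centring.

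*Gria1* encodes GluA1, the subunit whose delivery to synapses accompanies long-term potentiation. Its probe set 1435239_at read 1522, 1634, 1539 and 1566 in luciferase samples 1 to 4, and 1183, 1232 and 1444 in blank samples 5 to 7. Every luciferase sample lay above every blank sample, with blank sample 7 nearest. The means were 1565 ± 49.4 (SD, n = 4) and 1286 ± 139 (SD, n = 3), a log2 change of 0.29 (SE 0.09, limma adjusted p = 0.036). This call was lost when any luciferase sample was left out (adjusted p = 0.063, 0.086, 0.07 and 0.07 without samples 1 to 4) and without blank sample 5 or 6 (0.13 and 0.11), with no filter on level (0.066) and after centring (0.082). The other probe set, 1448972_at, read 1122, 970.1, 1071 and 1073 against 849, 773.5 and 1008. Blank sample 7 lay above luciferase sample 2, so the groups overlapped. Its log2 change of 0.28 (SE 0.10) was of like size but did not pass (limma adjusted p = 0.069), and without blank sample 7 it was 0.38 with an adjusted p of 0.012. Without blank sample 5 or 6 it was 0.26 and 0.19 (limma adjusted p = 0.17 and 0.23).

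*Gria2* encodes GluA2. Its brightest probe set, 1421970_a_at, read 4713, 4499, 4754 and 4519.9 in the luciferase samples and 3647, 3357 and 3699.5 in the blank samples. The groups were separated by more than the range within either. The means of 4621 ± 131 (SD, n = 4) and 3568 ± 184 (SD, n = 3) gave a log2 change of 0.37 (SE 0.07, limma adjusted p = 0.0068). The probe set 1453098_at, at 207, 265, 236 and 208 against 172, 183 and 185, rose as well, with a log2 change of 0.34 (SE 0.10, limma adjusted p = 0.034). It lost the call without luciferase sample 2 or 3 (adjusted p = 0.07 and 0.082) and without blank sample 5 or 6 (0.11 and 0.079), with no filter on level (0.056) and after quantile normalization or centring (0.1 each). The probe set 1434146_at did not follow, at 3189, 2616, 3033 and 2009 against 2239.6, 2401 and 3009. Here luciferase sample 4 lay below all 3 blank samples, and the log2 change of 0.08 had a 95% interval from -0.29 to 0.44 (limma adjusted p = 0.75).

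*Gria3* encodes GluA3. The brighter probe set, 1434728_at, read 967, 876, 963 and 878 against 704, 693 and 915. Blank sample 7 lay within the luciferase range, and the log2 change of 0.27 (SE 0.11) did not pass (limma adjusted p = 0.095). Without blank sample 7 it was 0.40 with an adjusted p of 0.008. Without blank sample 5 or 6 it was 0.21 and 0.20 (limma adjusted p = 0.27 and 0.28). The probe set 1420563_at read 411, 336, 427 and 412 against 292, 247 and 285. All luciferase samples lay above all blank samples, sample 2 being the nearest. The means of 396.6 ± 41.3 (SD, n = 4) and 274.7 ± 24.1 (SD, n = 3) gave a log2 change of 0.53 (SE 0.10, limma adjusted p = 0.0078), or 1.44-fold, the largest among the AMPA probe sets, and 0.61 without luciferase sample 2.

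*Gria4* encodes GluA4, a subunit with fast kinetics that is abundant in interneurons and early in development. The brightest probe set, 1435722_at, read 622, 623, 614 and 601 against 454, 443 and 478. It had the tightest luciferase values of the family, with a coefficient of variation of 1.64%. The means were 615 ± 10.1 (SD, n = 4) and 458.4 ± 17.8 (SD, n = 3), with a log2 change of 0.42 (SE 0.07, limma adjusted p = 0.0033), or 1.34-fold. The probe set 1440891_at showed almost nothing of this, at 248, 196, 232 and 201 against 209, 210.2 and 234. The groups overlapped throughout, and the log2 change was 0.01 with a 95% interval from -0.22 to 0.23 (limma adjusted p = 0.97). The dimmest, 1421351_at, read 89.8, 61.5, 66.3 and 75.7 against 64.8, 56.0 and 55.3, and its log2 change of 0.31 (SE 0.13) did not pass (limma adjusted p = 0.11).

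**Figure D2:**
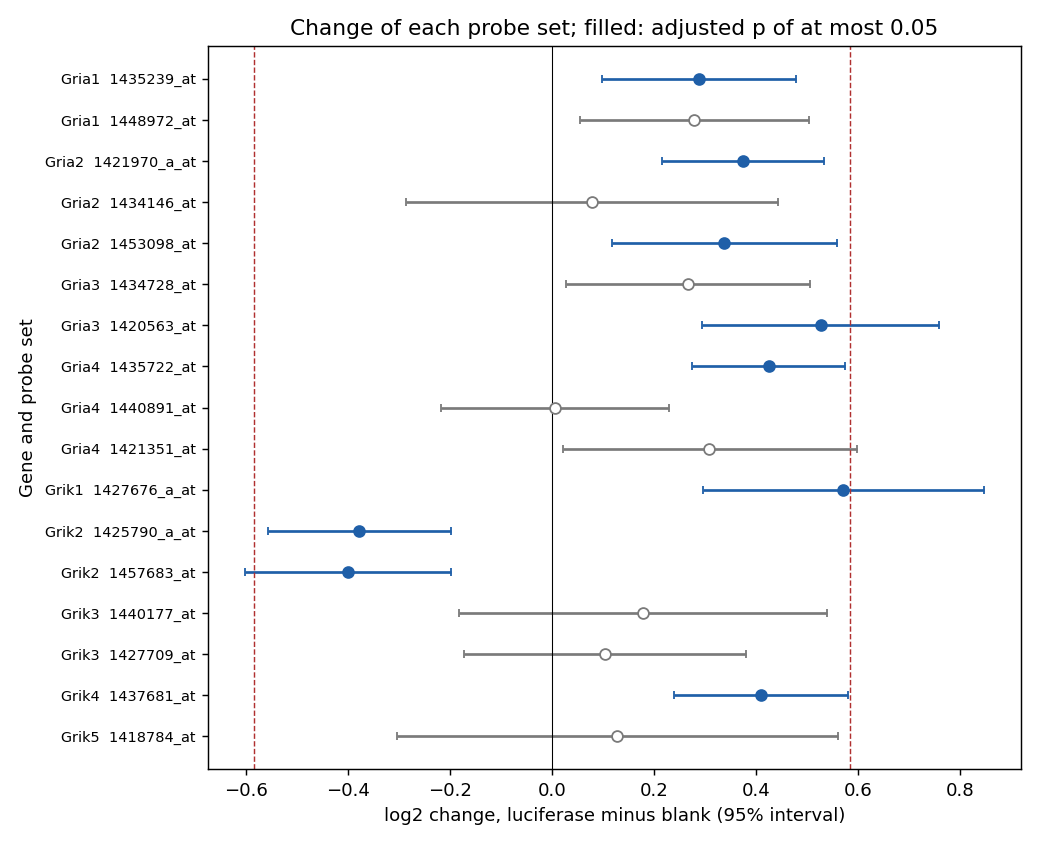
Log2 change of each tested probe set in luciferase minus blank samples (x axis) with its 95% interval from limma; filled points passed the adjusted p of 0.05, and red dashed lines mark 1.5-fold. All 10 AMPA points lie right of 0 on the deposited scale (2 of them turn under another scaling), the 2 of *Grik2* lie left of it, and no point lies outside the dashed lines.

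Where a gene had several probe sets, they were compared within each sample, as the log2 difference from the brightest, by a two-sided exact permutation test over all 35 assignments of 4 and 3 samples, whose smallest p is 0.029. With 8 pairs, 1 pair alone could reach no adjusted p below 0.23, and at least 5 pairs would have had to reach the smallest p for any to pass. Of the 8, 0 passed an adjusted p of 0.05 and 1 had an unadjusted p of 0.029, *Gria4* 1440891_at against 1435722_at. The difference lay between -1.67 and -1.33 in the luciferase samples and between -1.12 and -1.03 in the blank samples, so that the groups did not overlap. The shift was -0.42 (95% interval from -0.66 to -0.18, exact permutation adjusted p = 0.23). In *Gria2*, 1434146_at shifted against 1421970_a_at by -0.30 (95% interval from -0.75 to 0.16, exact permutation adjusted p = 0.53). In *Gria3*, 1420563_at shifted against 1434728_at by 0.26 (95% interval from -0.16 to 0.68, exact permutation adjusted p = 0.46). In the other 5 pairs the shift lay between -0.12 and -0.01.

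Whether the other AMPA subunits moved unequally to *Gria2*, which sets calcium permeability, was tested in the same way on the brightest probe set of each gene. Relative to *Gria2*, *Gria1* shifted by -0.09 (95% interval from -0.36 to 0.19), *Gria3* by -0.11 (from -0.55 to 0.33) and *Gria4* by 0.05 (from -0.04 to 0.14). None of the 3 passed (exact permutation p = 0.23, 0.31 and 0.14, adjusted p = 0.31 for each), where 1 subunit alone could reach no adjusted p below 0.086 and at least 2 would have had to reach the smallest p, and 0 of 3 had an unadjusted p of 0.05 or less. The interval was narrowest for *Gria4*, whose log2 difference from *Gria2* was -2.91 ± 0.04 (SD, n = 4) in luciferase and -2.96 ± 0.04 (SD, n = 3) in blank samples. Its sign turned under quantile normalization, to -0.02.

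The kainate subunits moved in both directions. Of 7 tested probe sets, 2 rose, those of *Grik1* and *Grik4*, 2 fell, both of *Grik2*, and 3 did not pass, with a median log2 change of 0.13. The share of higher and of lower probe sets was 28.6% each, beside 16.2% and 8.26% of all tested probe sets.

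*Grik1* encodes GluK1, which in the cortex is found mainly in inhibitory interneurons. The probe set 1427676_a_at read 214, 212, 214 and 170.2 in the luciferase samples and 159, 116 and 136 in the blank samples. All luciferase samples lay above all blank samples, although luciferase sample 4 stood apart from its 3 neighbours. The means of 202.7 ± 21.7 (SD, n = 4) and 136.9 ± 21.2 (SD, n = 3) gave the largest rise of the family, a log2 change of 0.57 (SE 0.12, limma adjusted p = 0.011), or 1.49-fold. Without luciferase sample 4 it was 0.65, and without blank sample 5 it was 0.68, both past 1.5-fold.

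*Grik2* encodes GluK2, the main kainate receptor subunit of principal neurons. Its probe set 1425790_a_at read 123, 107, 121 and 110.5 in the luciferase samples and 153, 154 and 142 in the blank samples. The probe set 1457683_at read 107, 91.2, 93.1 and 95.1 against 118, 124 and 141. In both, every luciferase sample lay below every blank sample. The first had means of 115.4 ± 7.89 (SD, n = 4) and 149.8 ± 6.8 (SD, n = 3), a log2 change of -0.38 (SE 0.08, limma adjusted p = 0.01). The other had means of 96.6 ± 7.14 (SD, n = 4) and 127.6 ± 11.8 (SD, n = 3), a log2 change of -0.40 (SE 0.09, limma adjusted p = 0.013). The luciferase means were thus 77.0% and 75.8% of the blank means, and the difference between the probe sets within samples shifted by only -0.02 (95% interval from -0.44 to 0.40).

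*Grik3* encodes GluK3, a subunit of low agonist sensitivity. Its probe set 1440177_at read 699.8, 534, 695 and 482 against 431, 547 and 615, and 1427709_at read 73.9, 74.1, 80.3 and 80.3 against 82.9, 78.0 and 57.0. The groups overlapped in both. The log2 changes of 0.18 (SE 0.16, limma adjusted p = 0.44) and 0.10 (SE 0.12, limma adjusted p = 0.56) had intervals from -0.18 to 0.54 and from -0.17 to 0.38, and without blank sample 7 the latter turned to -0.06.

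*Grik4* and *Grik5* encode the high-affinity subunits. *Grik4* 1437681_at read 128, 144, 136 and 127 against 102, 96.0 and 104, with no overlap. The means of 134.1 ± 7.89 (SD, n = 4) and 100.8 ± 4.32 (SD, n = 3) gave a log2 change of 0.41 (SE 0.08, limma adjusted p = 0.0063), or 1.33-fold. *Grik5* 1418784_at read 685, 721, 661 and 579 against 527, 467 and 891. Its blank samples varied most in the family, with a coefficient of variation of 36.5%, with sample 7 above all other samples. The log2 change of 0.13 had a 95% interval from -0.31 to 0.56 (limma adjusted p = 0.65). Without blank sample 7 it was 0.41 with an adjusted p of 0.019, and without blank sample 6 it was -0.06.

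Within the groups, the members did not vary evenly over samples. Blank sample 7 was the highest blank sample in 12 of 17 probe sets and in 8 of the 10 AMPA probe sets, and luciferase sample 4 was the lowest luciferase sample in 6 and reached the highest value only in *Grik3* 1427709_at, tied with sample 3. Luciferase sample 2 was the lowest in 8. The median coefficient of variation of the members was 7.39% in luciferase and 9.26% in blank samples, near the 6.99% and 8.9% of all tested probe sets. Over all tested probe sets, samples correlated with r from 0.9928 to 0.9958 within luciferase, from 0.9885 to 0.9954 within blank and from 0.9774 to 0.9852 between groups. Their median intensities over these probe sets were 237.4 to 241.4 in luciferase and 215.5 to 235.1 in blank samples. Over the 42596 probe sets before the filter on level the order turned, to 48.28 to 49.03 in luciferase and 49.61 to 50.95 in blank samples.

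Across 14 alternatives of filter, scaling, variance model and left-out sample, 7 of the 9 calls held in each: *Gria2* 1421970_a_at, *Gria3* 1420563_at, *Gria4* 1435722_at, *Grik1* 1427676_a_at, both probe sets of *Grik2*, and *Grik4* 1437681_at. The highest adjusted p among them was 0.041, for *Grik1* and *Grik2* 1425790_a_at. *Gria1* 1435239_at and *Gria2* 1453098_at lost their calls in 8 and 7 of the 14.

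**Figure D3:**
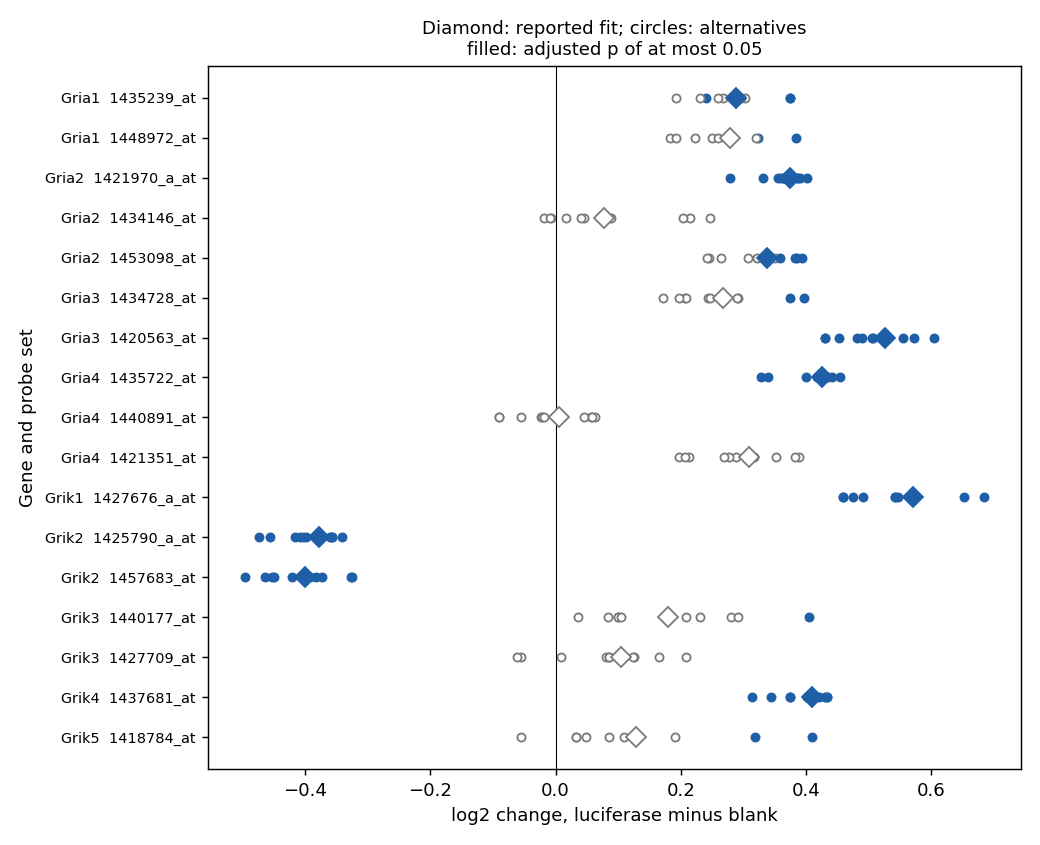
Log2 change, luciferase minus blank (x axis), of each tested probe set as reported (diamonds) and under the alternatives (circles), filled where the adjusted p was at most 0.05. The circles of *Grik2* stay filled and left of 0, those of *Gria1* 1435239_at are partly open, and those of *Gria4* 1440891_at lie on both sides of 0.

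Proteins that travel with the receptors were read from a list of 46 genes, of which 43 were tested by their brightest probe set. Among these, 5 rose, 7 fell and 31 did not pass, with a median log2 change of 0.01, where 16.2% of all tested probe sets were higher and 8.26% lower. The share of lower genes depended on scaling, and so did the background. Lower were 12 genes under quantile normalization and 13 after centring, beside 11.5% and 15.3% of all tested probe sets. The number higher was 3 after centring and without luciferase sample 2 or 4, 2 without luciferase sample 3 or blank sample 6, and 8 with array weights. Of all tested probe sets, 9.1% were higher after centring and 27.6% with array weights. Without luciferase samples 2, 3 and 4 and blank sample 6 the share was 11.5%, 11.5%, 11.7% and 8.97%.

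Of 20 auxiliary and biogenesis proteins of AMPA receptors, 4 rose and 5 fell, beside 16.2% and 8.26% of all tested probe sets. The share higher was near the background, and the share lower was above it. Here and in the other lists a gene counts by its brightest probe set, whereas the background counts every tested probe set. The shares are therefore not of like units. The auxiliary subunit *Shisa9* (CKAMP44), which slows recovery from desensitization, read 243, 361, 417 and 378 against 231, 167 and 233. The groups did not overlap, and the log2 change was 0.72 (SE 0.19, limma adjusted p = 0.023). The call was lost without luciferase sample 2, 3 or 4 or blank sample 6 (adjusted p = 0.053, 0.061, 0.053 and 0.084), and its other probe set, 1453428_at, had a log2 change of 0.01 (limma adjusted p = 0.96). Another member of that family, *Shisa7*, rose by 0.43 on the log2 scale (SE 0.08, limma adjusted p = 0.0067). In contrast, the transmembrane AMPA receptor regulatory protein *Cacng7* fell, with a log2 change of -0.44 (SE 0.10, limma adjusted p = 0.013), and so did *Cpt1c*, which governs the exit of GluA1 from the endoplasmic reticulum, with -0.43 (SE 0.08, limma adjusted p = 0.0055).

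The other 5 auxiliary genes that passed are named after their values were seen. *Abhd6*, a lipase that limits surface delivery of AMPA receptors, rose by 0.37 on the log2 scale, and *Prrt1* (SynDIG4) rose by 0.26. *Cnih3*, which slows channel closing, *Syndig1* and *Cacng2* (stargazin), which brings AMPA receptors to the synapse, had log2 changes of -0.42, -0.36 and -0.30. Their limma adjusted p values lay between 0.0073 and 0.025. A dimmer probe set of *Prrt1* pointed the other way, with -0.27 (limma adjusted p = 0.26), and of 3 *Cacng2* probe sets 2 were lower. *Cacng2* lost its call without luciferase sample 2 or 3 or blank sample 5 (adjusted p = 0.064, 0.053 and 0.08) and with no filter on level (0.051), and *Prrt1* lost it without luciferase samples 2, 3 or 4 or blank sample 6 (adjusted p from 0.05 to 0.069), with no filter (0.057) and under both other scalings (0.12 each).

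Of 5 partners of kainate receptors, 1 rose, *C1ql2*, a secreted protein that recruits kainate receptors at mossy fibre synapses. It read 82.2, 72.9, 80.6 and 75.7 against 56.1, 63.6 and 67.8, a log2 change of 0.32 (SE 0.09, limma adjusted p = 0.027). The call was lost without luciferase sample 1 or 3 or blank sample 5 or 6 (adjusted p = 0.068, 0.068, 0.1 and 0.063) and after centring (0.08). The auxiliary subunits *Neto1* and *Neto2*, named for that role after their values were seen, had log2 changes of 0.14 (SE 0.08) and -0.26 (SE 0.09) and did not pass (limma adjusted p = 0.23 and 0.064).

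Of 15 anchoring and trafficking genes, 14 were tested, 0 rose and 2 fell (16.2% and 8.26% of all tested probe sets), with a median log2 change of -0.14. *Arc*, the activity-induced gene that promotes endocytosis of AMPA receptors, read 61.9, 81.3, 82.0 and 80.2 against 136, 103 and 152. The groups stood apart, with a log2 change of -0.76 (SE 0.14, limma adjusted p = 0.0068). *Gripap1*, which serves recycling of AMPA receptors, had a log2 change of -0.29 (SE 0.07, limma adjusted p = 0.018), lost without blank sample 5 (0.064). *Nptx2*, an activity-induced pentraxin that clusters AMPA receptors and is named here after its values were seen, had a log2 change of -0.84 in its brightest probe set, which did not pass (limma adjusted p = 0.073), and of -1.05 in the other, 1449960_at (limma adjusted p = 0.025). In 4 of the genes not passed by their brightest probe set another probe set passed, lower in *Nptx1* and *Nptx2* and higher in *C1ql3* and *Frrs1l*. Of 3 RNA editing enzymes, which include the editor of the *Gria2* message, 0 passed (limma). The log2 changes of their brightest probe sets ran from 0.03 to 0.10, and 0 of 3 were past 1.5-fold. Over all their tested probe sets, of which 0 passed, the changes ran from -0.18 to 0.15. The delta receptor *Grid1* had a log2 change of 0.00 in its brightest probe set and of 0.17 in the other (limma adjusted p = 0.24).

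**Figure D4:**
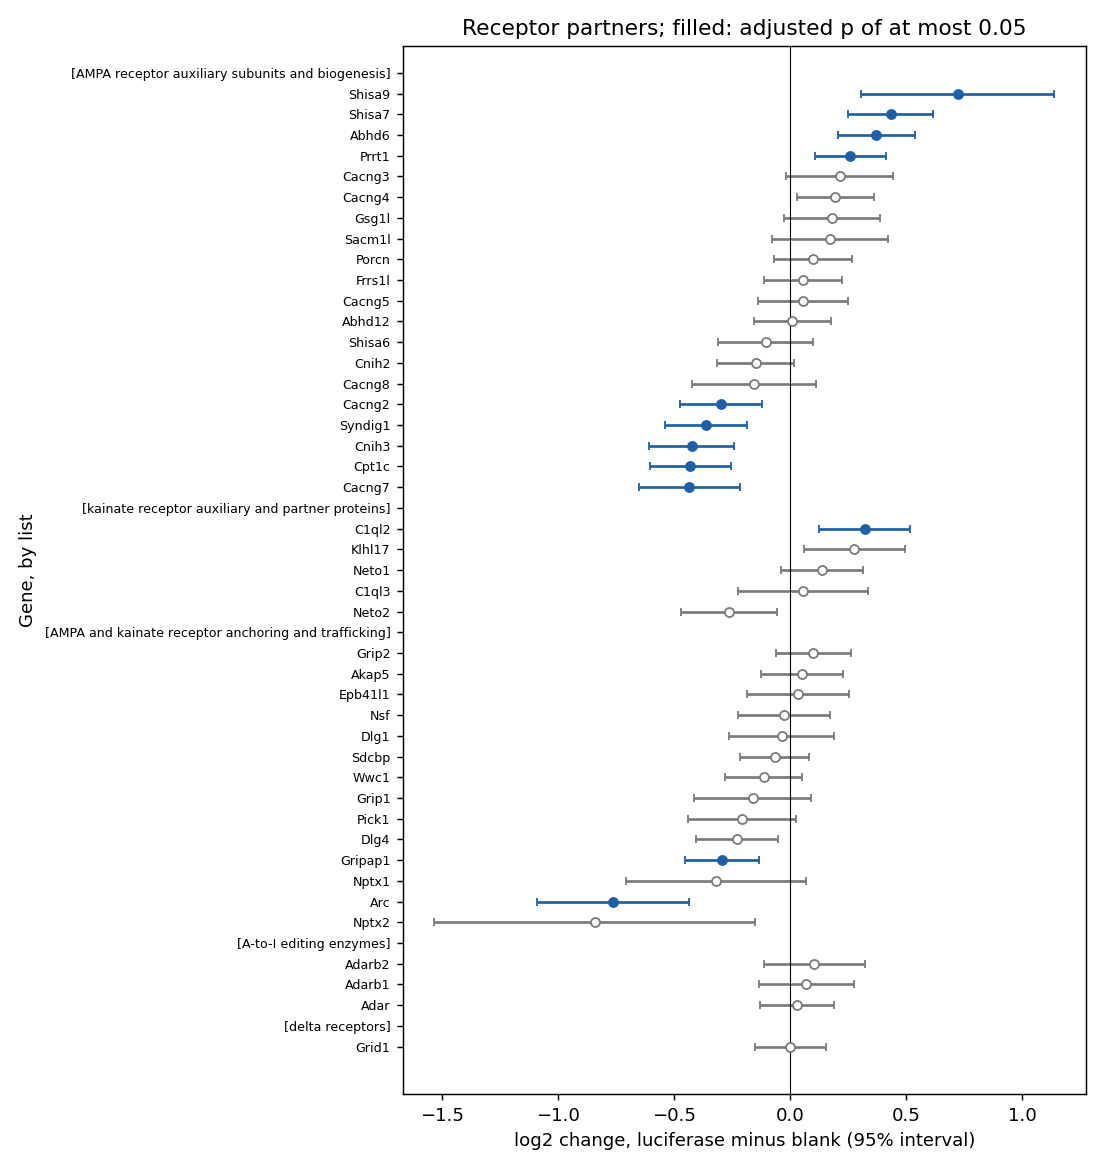
Log2 change, luciferase minus blank (x axis), with its 95% interval from limma, of the 43 tested genes that accompany the receptors, grouped by list; filled points passed the adjusted p of 0.05. The auxiliary list holds 4 filled points right and 5 left of 0, and the filled points of the trafficking list, *Arc* and *Gripap1*, lie left of 0.

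Of the markers of other cells, most astrocyte markers and *Dcn*, the 1 vascular and meningeal marker tested, moved with the groups. Most oligodendrocyte lineage markers and the 1 microglial marker tested did not pass. AMPA and kainate subunits are not confined to neurons, since astrocytes and oligodendrocyte precursors also make some of them. Of all tested probe sets, 16.2% were higher, 2.9% past 1.5-fold too, and 8.26% were lower, so 1 passing marker in a list of 5 or 6 says little. Of 7 astrocyte markers, 5 were higher in luciferase samples, 3 of them past 1.5-fold, and their summed intensity was 21415 to 23004 in luciferase and 16038 to 17744 in blank samples. *Gfap*, the leading one, had a log2 change of 1.19 (limma adjusted p = 6e-04). Of 5 general neuronal markers, 0 passed in the limma fit, and their summed intensity was 28775 to 30353 against 26918 to 28404. The 3 glutamatergic markers tested split, with *Slc17a7* (the vesicular glutamate transporter) at 0.39 and *Neurod6* at -0.68, and summed to 2869 to 3225 against 3398 to 4354. Of 5 markers of GABA neurons, 1 fell, *Slc32a1* at -0.25, and they summed to 6044 to 6588 against 6457 to 7535. Of 6 oligodendrocyte lineage markers tested, 1 rose, *Mbp* at 0.39, with sums of 6161 to 7349 against 6457 to 6622. Of the microglial markers *Aif1*, *Cx3cr1*, *C1qa* and *Itgam* stayed under 50 on every array and *Csf1r* did not pass, at 78 to 95 against 92 to 107. The vascular and meningeal marker *Dcn* fell, with a log2 change of -1.0 and a range of 347 to 540 against 760 to 940, while the other 3 of that list stayed under 50. The part of these cell types in the subunit values was not tested.

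For each member gene whose brightest probe set passed, the genes most alike over the 7 samples are given as a description, by Pearson's r of log2 intensity, where the shared difference between groups enters every value. Those nearest *Gria1* were *Pde7a* (r = 0.9987), *Cul4b* (0.9975) and *Smim26* (0.9955), and those nearest *Gria2* were *Crebzf* (0.9945), *Ythdf1* (0.9924) and *Me2* (0.9921). *Gria4* was closest to *Krtcap2* (0.9984), *Crabp1* (0.9981) and *Nfe2l3* (0.9975). *Grik1* was closest to *Psip1* (0.9935), *Fam120a* (0.9846) and *Znhit6* (0.9826), *Grik2* to *Plppr1* (0.9911), *Haus2* (0.9894) and *Igfals* (0.9884), and *Grik4* to *Zc4h2* (0.9969), *Srf* (0.9953) and *Thap11* (0.9942).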

How the data were processed

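Total RNA of 7 primary cortical neuron samples, 4 luciferase and 3 blank, was hybridised to Affymetrix Mouse 430_2 arrays. The authors normalized the arrays with RMA (version: not given in the sources used here). The deposited intensity values are linear and run from 4.69 to 23763. The methods name another RNA extraction reagent than the labels. Groups came from the treatment field of the labels, since the descriptions of the blank samples mention a hairpin in general terms.

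The blank columns sat 1 row below the luciferase columns in the deposited table and were moved up by 1. Around the member rows the log2 group means had r from 0.986 to 0.996 after the move and from 0.031 to 0.302 before it. Of 45101 probe sets, 64 controls and 2441 with _x in the name were left out, and 22748 of the other 42596 reached 50 on at least 1 array. The table held 0 columns of other samples. The log2 intensity of luciferase and blank samples was compared by lmFit and eBayes of limma 3.58.1 (R 4.3.3) without covariates, and p-values were adjusted by Benjamini-Hochberg over the 22748 probe sets. Differences within samples were tested by exact permutation, and their intervals are Welch t intervals. Fits were tested on simulated data. Alternatives were 3 filters, 2 scalings, 2 variance models and each sample left out. The number of arrays limits the precision.

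Gene names came from the array annotation, used where a probe set names 1 gene. A pathway gene is represented by its brightest tested probe set. The members, the lists, the markers and the motifs were chosen with earlier results of these data known. Named were all member probe sets, up to 4 passing genes of each list with the largest changes, and the 3 genes most alike. Some listed genes are not reported here. The marker lists were Rbfox3, Snap25, Tubb3, Map2 and Syt1 for neurons, Slc17a7, Slc17a6 and Neurod6 for glutamatergic neurons, Gad1, Gad2, Slc32a1, Sst and Npy for GABA neurons, and Gfap, Aldh1l1, Aqp4, Slc1a2, Slc1a3, Aldoc and S100b for astrocytes.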

Additional observations from a re-analysis of the deposited data

Results flagged for a closer look

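Among 29 probe sets named in the text with 4 luciferase values, 2 had a luciferase sample far from the other 3, by the gap to the nearest sample over the range, and chance alone marks about 1 in 20 groups. *Grik1* 1427676_a_at read 170.21 in luciferase sample 4, where the others lay between 212.01 and 214.4 (gap over range 0.946). *Arc* 1418687_at read 61.93 in luciferase sample 1, where the others lay between 80.21 and 82.02 (gap over range 0.91).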

How the results depend on the processing

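No paired analysis was possible because the replicate numbers of the groups, 1 to 4 and 5 to 7, do not overlap. Of the member probe sets, 2 were lower in each of the 14 alternatives, and 7 were higher as reported, 11 with array weights and 5 to 10 with a sample left out. Of all tested probe sets, 16.2% were higher as reported, 6.79% with no filter and 9.1% after centring. The share was 27.6% with array weights and 8.97% to 21.6% with a sample left out, so the background moved too. The AMPA probe sets higher numbered 5, and 3 with no filter, 3 after centring and 3 to 7 with a sample left out: 3 without luciferase sample 2 or 3 or blank sample 5 or 6, and 7 without blank sample 7. The count past 1.5-fold was 0, and 0 to 1 with a sample left out: 1 without luciferase sample 2 (*Gria3*), luciferase sample 4 or blank sample 5 (both *Grik1*). Other pathway genes higher numbered 5, and 3 after centring, 8 with array weights and 2 to 7 with a sample left out (3 without luciferase sample 2 or 4, 2 without luciferase sample 3 or blank sample 6). Those lower numbered 7, and 12 with quantile normalization, 13 after centring and 5 to 8 with a sample left out. Of all tested probe sets, 8.26% were lower as reported, 11.5% with quantile normalization and 15.3% after centring. The share lower was 14.4% with array weights and 5.11% to 9.62% with a sample left out.

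Signs that turned were all of changes that had not passed. *Gria4* 1440891_at was -0.09 with quantile normalization, -0.09 after centring and -0.056 to 0.058 with a sample left out. *Gria2* 1434146_at was -0.018 after centring and -0.009 to 0.215 with a sample left out. *Grik3* 1427709_at was -0.056 with array weights and -0.061 to 0.209 with a sample left out, and *Grik5* -0.056 to 0.41. Of the differences within samples, *Gria4* minus *Gria2* was -0.016 with quantile normalization and 0.028 to 0.069 with a sample left out, *Gria1* minus *Gria2* -0.16 to -0.026 and *Gria3* minus *Gria2* -0.182 to -0.003. With a sample left out the *Gria1* pair lay between -0.067 and 0.053, the *Gria2* pair with 1453098_at between -0.121 and 0.02, the *Grik2* pair between -0.092 and 0.089 and the *Grik3* pair between -0.353 and 0.173. Same-gene pairs past the adjusted p stayed at 0 (exact permutation), a count with little weight, since 1 pair alone cannot reach an adjusted p below 0.23 and with a sample left out even the unadjusted p cannot reach 0.05. The causes of these shifts were not tested.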
